A study of Mus musculus with 4 samples.

Results

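The 6 claudin genes of the mouse small-intestinal epithelium are described here (Cldn2, Cldn3, Cldn4, Cldn7, Cldn15 and Cldn23), 6 of the 32285 genes counted in each library, picked by name. Between cell classes, Cldn4 was close to absent from absorptive cells and present in stem and secretory cells, Cldn2 was low in secretory cells, and Cldn3, Cldn7 and Cldn23 were highest in absorptive cells. Over all mice, no claudin passed between clones and control epithelium or between the 2 tracing times in the edgeR fits with pool as covariate. In dividing cells the planned fits did not call Cldn4 for gate or for time, and some alternatives did. With the mouse as block it was higher in clones, a rise seen in 72 h mice. The 48 h mouse with both gates had no Cldn4 UMI in its dividing clone cells, which were too few and shallow to show that the rise was absent. With 1 sum per mouse, tried after the data were seen, Cldn4 was higher at 72 h, where clones made up more of the dividing cells.

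Claudins are proteins that span the membrane several times, link neighbouring epithelial cells in tight junctions and set which ions and molecules pass between the cells. Cldn2 and Cldn15 form paracellular channels that let cations through, and Cldn2 also lets water pass. Cldn3 and Cldn4 are mostly counted among the sealing claudins. Cldn7 binds EpCAM and lies along the lateral membrane as well as in the junction. Cldn23 is a less studied member found in differentiated intestinal epithelium. In the intestine, claudin use is known to shift between the crypt, where stem and dividing cells lie, and the villus, where absorptive cells work.

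All mice carried Lgr5-EGFP-IRES-CreERT2 and Rosa26-mTmG, so that 4-OH-tamoxifen switches on a membrane GFP in Lgr5-expressing cells and their progeny. Clones were GFP-high cells of 4 mice traced for 48 h (mice 1 to 4) and 4 mice traced for 72 h (mice 5 to 8), and the control epithelium was GFP-negative cells of the same 8 mice, with the same genotype and 4-OH-tamoxifen. Ages are not given. Cells came from crypts of the distal small intestine after the villi had been scraped off, so absorptive cells here are those that were left with the crypts. Hashtag antibodies, 1 per mouse, marked the cells, which were sequenced in 2 pools: pool 1 held clones of mice 3, 4, 7 and 8 with control cells of mice 1, 2, 5 and 6, and pool 2 held the opposite gates. The clones and the control cells of a mouse therefore never share a pool. The Lgr5 allele itself carries EGFP, so GFP-high cells can be reporter clones or cells with high Lgr5 expression. Lgr5 lay between 46.8 and 209.0 CPM (UMIs of a gene scaled to the total of the sum) in 48 h clones, against 28.3 to 65.1 CPM in 48 h control cells, and between 70.1 and 163.8 CPM in 72 h clones, against 28.2 to 66.1 CPM in 72 h control cells.

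After filtering, 1993 cells remained. They were clustered without any claudin gene, and clusters were named from marker lists: 173 enterocyte cells form the absorptive class, 597 secretory cells join goblet, Paneth, enteroendocrine and tuft cells with secretory progenitors, and 533 cells were dividing and 236 stem. These names stand for clusters that look like the type (enterocyte-like and so on), not for sorted populations. Another 50 cells, dividing secretory cells, and 4 unnamed clusters of 38 to 172 cells stayed outside the 4 classes. Median depth was 24276 UMIs (unique transcript counts) in secretory cells, 27594 in absorptive cells, 15762 in dividing cells and 17018.5 in stem cells. The clone cells of mouse 3 stood apart: 83 cells with a median of 1841 UMIs, against 19414.5 in all other cells, and with 48.6% of hashtag counts on the top hashtag, against 84.9%. These 83 are most of the 110 clone cells of 48 h, and whether their hashtag calls are right was not tested. One barcode occurred in both pools.

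Levels below are CPM of the UMIs summed over the cells of a mouse and class, with a class used in a mouse when it had at least 10 cells. This left 6 mice for absorptive and stem cells (mice 3 to 8) and 8 for secretory and dividing cells. UMI counts carry no correction for transcript length, so CPM are compared for one gene between cells, not between genes. Of 32 claudin genes in the table, 15 had at least 1 UMI in these cells, and the 6 described held 111514 of 112554 claudin UMIs (99.1%).

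The promoters of 3 genes show where these genes differ in sequence: Cldn4 and Cldn3, which are neighbours on chromosome 5 but were highest in different classes, and Cldn2, the claudin lowest in secretory cells. In the GENCODE annotation of GRCm38, Cldn4 (chromosome 5, 134945119 to 134946934, minus strand) and Cldn3 (chromosome 5, 134986214 to 134987472, plus strand) are single-exon genes 39279 bp apart. Cldn2 lies on chromosome X (139800828 to 139811386, plus strand), Cldn15 on chromosome 5 (136966616 to 136975858, plus strand), Cldn7 on chromosome 11 (69964779 to 69967885, plus strand) and Cldn23 on chromosome 8 (35824712 to 35826559, minus strand). The lines give the 250 bases before the RefSeq start of each gene (GRCm38.p6; for Cldn2 this start differs from that of GENCODE), 5′ to 3′ on the gene's strand, at chr5:134946935-134947184 for Cldn4, chr5:134985964-134986213 for Cldn3 and chrX:139800558-139800807 for Cldn2. Capitals mark matches to AP-1 (TGANTCA) or to the TATA box (TATAAA).
Cldn4: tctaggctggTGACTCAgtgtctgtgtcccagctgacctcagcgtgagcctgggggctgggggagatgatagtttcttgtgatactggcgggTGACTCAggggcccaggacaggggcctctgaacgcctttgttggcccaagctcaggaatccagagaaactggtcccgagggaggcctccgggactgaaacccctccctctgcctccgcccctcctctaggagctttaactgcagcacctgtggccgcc
Cldn3: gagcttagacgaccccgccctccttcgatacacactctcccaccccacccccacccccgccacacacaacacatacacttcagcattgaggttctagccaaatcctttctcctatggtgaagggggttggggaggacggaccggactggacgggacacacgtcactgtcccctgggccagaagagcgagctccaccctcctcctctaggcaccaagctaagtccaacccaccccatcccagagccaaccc
Cldn2: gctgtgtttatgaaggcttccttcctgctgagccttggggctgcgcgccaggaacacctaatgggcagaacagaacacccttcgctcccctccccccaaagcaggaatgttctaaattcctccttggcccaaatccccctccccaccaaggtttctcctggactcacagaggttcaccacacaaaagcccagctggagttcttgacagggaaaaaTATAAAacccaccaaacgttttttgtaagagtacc
Both strands were searched for AP-1, the TATA box and the motif AGATAA of GATA factors, which do not overlap one another, in windows of 250 bases before to 50 after the start. The Cldn4 window held 2 AP-1 matches, 240 and 158 bases before the start, and the Cldn15 window held 1. The Cldn2 window held 1 TATA match 35 bases before the start, and the Cldn3 and Cldn7 windows held none of the 3 motifs. Cldn23 had no promoter window among the sequences used and was not searched. Of 32851 mouse promoter windows of that length, 7.81% held AP-1, 13.6% the TATA box and 11.2% the GATA factor motif. These matches are descriptions of letters, not of bound sites.

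Cldn4 had the widest range among classes. Per mouse it ranged between 57.9 and 240.7 CPM (median 153.7) in 8 secretory sums, between 0 and 3.65 CPM (median 0.34) in 6 absorptive sums, between 10.8 and 52.3 CPM (median 27.1) in 8 dividing sums and between 88.5 and 205.0 CPM (median 153.2) in 6 stem sums. Absorptive cells held 5 Cldn4 UMIs in total, 3 of the 6 mice had none, and the absorptive values lay below every value of the other classes. Dividing cells lay below every secretory and stem sum. Secretory and stem values overlapped widely.

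Cldn4 in absorptive cells was lower than in stem cells by 6.57 ± 0.49 on the log2 scale (log2 fold change -6.57 ± 0.49, SE; edgeR quasi-likelihood test, Benjamini-Hochberg adjusted p = 4.2e-14). It was also lower in absorptive than in dividing cells (log2 fold change -4.45 ± 0.61, edgeR adjusted p = 7.3e-08), and lower in dividing than in stem cells (-2.12 ± 0.22, edgeR adjusted p = 6.8e-10). Against absorptive cells, secretory cells had far more (7.04 ± 0.44, edgeR adjusted p = 1.7e-16). With 5 UMIs behind the absorptive level, the size of the first, second and last of these folds is loose. The small excess in secretory over stem cells (0.47 ± 0.18, edgeR adjusted p = 0.029) was lost in 11 of 23 alternatives, among them leaving out mouse 3, 6, 7 or 8, where it lay between 0.32 and 0.46.

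Shares of cells at equal depth also put absorptive cells lowest and dividing cells next, but put stem cells above secretory cells, with overlapping intervals. After each cell was thinned to 5000 UMIs, 37.9% of 556 secretory cells (Wilson 95% interval 34.0 to 42.1%), 1.28% of 156 absorptive cells (0.35 to 4.55%), 11.2% of 491 dividing cells (8.71 to 14.3%) and 44.2% of 217 stem cells (37.8 to 50.9%) had a Cldn4 UMI. Without thinning the shares were 67.8% of secretory, 2.89% of absorptive, 21.0% of dividing and 64.0% of stem cells. Thinning left out 41, 17, 42 and 19 shallower cells of these classes, in the same order. As a gauge of free RNA, the goblet mucin Muc2 averaged 7423 CPM in secretory cells, 25.1 CPM in absorptive, 37.6 CPM in dividing and 60.9 CPM in stem cells. Cldn4 averaged 156.2 ± 57.7 CPM in secretory and 148.0 ± 48.0 CPM in stem cells (SD, n = 8 and 6 mice).

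**Figure D1:**
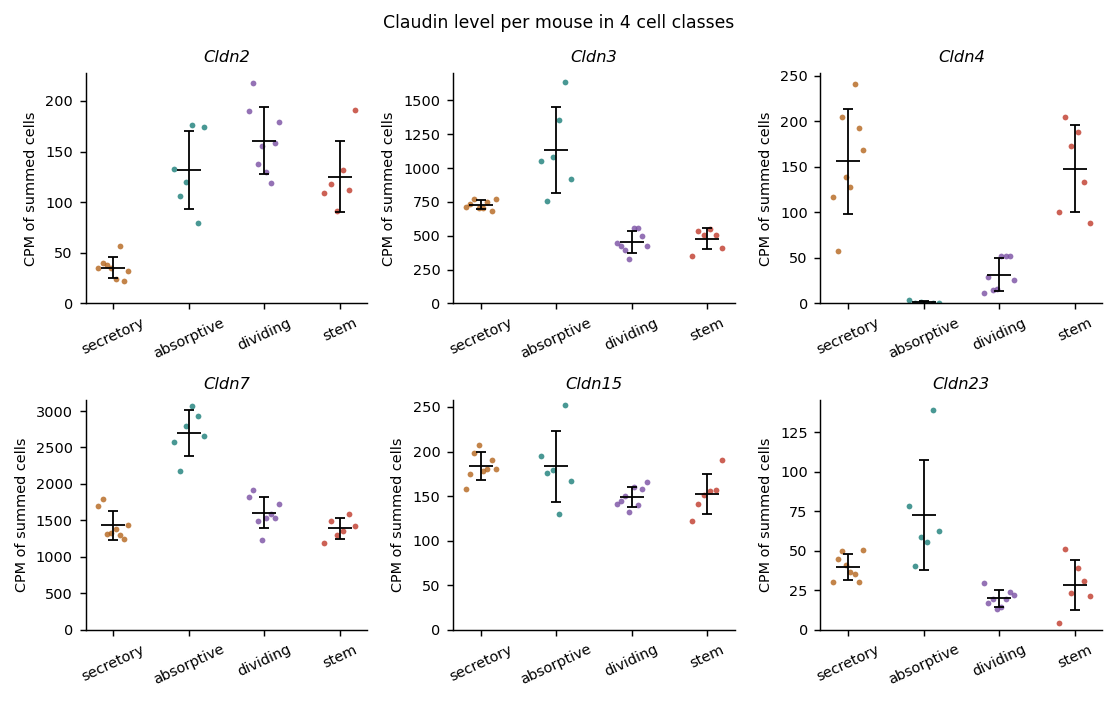
Claudin levels per mouse in 4 cell classes. Each point is the CPM of all cells of one class in one mouse (8 secretory, 6 absorptive, 8 dividing and 6 stem sums), with mean and SD as black marks, on a linear axis for each gene that starts at 0. Cldn4 in the absorptive class lies between 0 and 3.65 CPM, and Cldn2 in the secretory class between 22.5 and 56.8 CPM, below every other class.

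Cldn2, the cation and water channel, showed another pattern. It ranged between 22.5 and 56.8 CPM (median 34.9) in secretory cells, 78.9 and 176.2 CPM (median 126.5) in absorptive cells, 118.6 and 217.6 CPM (median 156.8) in dividing cells, and 91.0 and 190.7 CPM (median 115.0) in stem cells. No secretory value reached a value of another class, and the other 3 classes overlapped. Secretory cells were lower than stem cells (log2 fold change -1.74 ± 0.15, edgeR adjusted p = 1.9e-12) and lower than absorptive cells (-2.03 ± 0.14, edgeR adjusted p = 8.0e-15). Neither call was lost in any of 23 alternatives. Absorptive against stem cells gave 0.28 ± 0.15 (edgeR adjusted p = 0.092), dividing against stem 0.18 ± 0.13 (0.32) and absorptive against dividing 0.10 ± 0.13 (0.49). The first of these passed in 4 of 23 alternatives, with mouse and gate as block (0.40, edgeR adjusted p = 0.0087), with sums of at least 5 cells (0.33, 0.036), without mouse 6 (0.32, 0.045) and without mouse 7 (0.40, 0.028). The last has a positive fold although the median CPM was lower in absorptive than in dividing cells. Over the alternatives it lay between -0.18 and 0.28.

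Cldn3, a sealing claudin, was measured at 680.9 to 771.5 CPM (median 724.1) in secretory cells, 756.0 to 1635 CPM (median 1066) in absorptive cells, 331.2 to 559.4 CPM (median 436.0) in dividing cells and 352.1 to 552.3 CPM (median 504.2) in stem cells. Secretory and absorptive sums all lay above every dividing and stem sum. Compared with stem cells, Cldn3 was higher in absorptive cells (log2 fold change 1.38 ± 0.11, edgeR adjusted p = 5.5e-13) and in secretory cells (0.83 ± 0.11, edgeR adjusted p = 3.9e-08). It was lower in secretory than in absorptive cells (-0.55 ± 0.10, edgeR adjusted p = 2.1e-05). Dividing against stem cells gave -0.16 ± 0.11 (edgeR adjusted p = 0.27).

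Cldn7, the EpCAM-binding claudin, had 1241 to 1793 CPM (median 1349) in secretory cells, 2171 to 3065 CPM (median 2723) in absorptive cells, 1237 to 1910 CPM (median 1561) in dividing cells and 1195 to 1588 CPM (median 1389) in stem cells. Every absorptive value lay above the highest value of any other class, and the other 3 classes overlapped. It was higher in absorptive than in stem cells (log2 fold change 1.11 ± 0.08, edgeR adjusted p = 1.2e-14) and than in dividing cells (1.10 ± 0.07, edgeR adjusted p = 2.8e-15). Against absorptive cells it was lower in secretory cells (-0.97 ± 0.07, edgeR adjusted p = 7.6e-14). Cldn7 did not pass in secretory against stem cells (0.14 ± 0.08, edgeR adjusted p = 0.11) or in dividing against stem cells (0.01 ± 0.08, 0.92).

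The other cation channel, Cldn15, had class means between 148.8 and 183.6 CPM. Its values were 157.4 to 207.6 CPM (median 180.4) in secretory cells, 129.8 to 251.9 CPM (median 177.7) in absorptive cells, 132.0 to 165.3 CPM (median 147.1) in dividing cells and 121.7 to 190.7 CPM (median 153.1) in stem cells, and the 4 ranges overlapped. Small differences passed the test: secretory over stem 0.48 ± 0.10 (edgeR adjusted p = 8.2e-05), absorptive over stem 0.41 ± 0.11 (0.0014) and absorptive over dividing 0.51 ± 0.10 (2.5e-05). Absorptive over stem was lost in clones alone (0.31, edgeR adjusted p = 0.36) and with library totals in place of TMM scaling (0.23, 0.078). In CPM of sums with at least 5 cells, enterocytes averaged 177.7 CPM and stem cells 171.3 CPM. Enterocytes were higher in 4 of 8 mice there (mean log2 difference 0.07). Absorptive over dividing was lost in clones alone (0.39, edgeR adjusted p = 0.20). Secretory against absorptive cells gave 0.07 ± 0.10 (edgeR adjusted p = 0.53).

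Cldn23 had 30.03 to 50.8 CPM (median 38.6) in secretory cells, 40.6 to 139.1 CPM (median 60.6) in absorptive cells, 12.9 to 29.8 CPM (median 19.3) in dividing cells and 4.35 to 51.2 CPM (median 27.0) in stem cells. The stem sums spread over the whole secretory and dividing range. Absorptive cells had more than stem cells (log2 fold change 1.42 ± 0.24, edgeR adjusted p = 4.9e-06) and than dividing cells (2.06 ± 0.21, edgeR adjusted p = 1.1e-10), and secretory cells less than absorptive cells (-0.71 ± 0.18, edgeR adjusted p = 0.0012). The last was lost in clones alone (-0.66, edgeR adjusted p = 0.13) and with a mitochondrial limit of 10% (-0.38, 0.073). Secretory over stem cells (0.71 ± 0.23, edgeR adjusted p = 0.009) was lost among control cells alone (0.28, 0.45), without TMM scaling (0.52, 0.063) and without mouse 8 (0.51, 0.10). Dividing against stem cells missed the threshold (-0.64 ± 0.26, edgeR adjusted p = 0.057) and passed in 7 of 23 alternatives, 4 of them leaving out mouse 1, 3, 7 or 8 (-0.76 to -0.70).

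**Figure D2:**
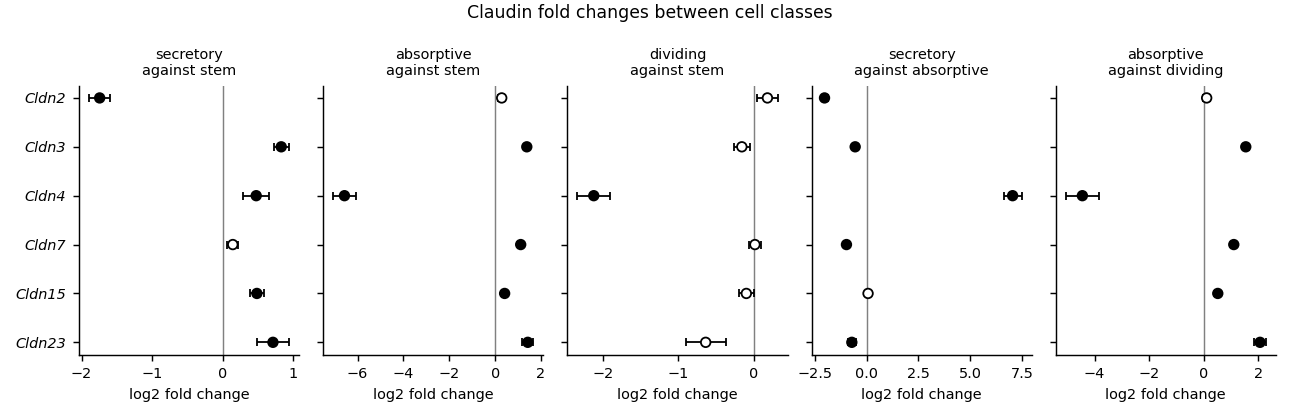
Fold changes of the 6 claudins between cell classes. Points are log2 fold changes from edgeR with SE bars, the first-named class over the second, and filled points have an adjusted p under 0.05. Cldn4 spans -6.57 in absorptive against stem cells to 7.04 in secretory against absorptive cells, and the other claudins lie between -2.03 and 2.06.

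Counting calls, absorptive against stem cells changed 5 of the 6 claudins, 4 higher and 1 lower, where 61.5% of all 8955 genes tested passed (29.3% higher, 32.2% lower). The same counts held for absorptive against dividing cells, with 65.6% of genes passing (32.1% higher, 33.5% lower). Secretory against stem cells changed 5, 4 higher and 1 lower (55% of genes, 28% higher, 27% lower). Secretory against absorptive cells changed 5, 1 higher and 4 lower (58.9% of genes, 33% higher, 25.9% lower). Dividing against stem cells changed Cldn4 alone, lower (34.5% of genes, 17.5% higher, 17% lower). Most genes passed in the first 4 contrasts, so these counts alone do not set the claudins apart.

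The order over finer classes, each with at least 5 cells in a mouse, separated the secretory types. Cldn4 averaged 231.3 ± 76.7 CPM in enteroendocrine cells (SD, n = 4 mice), 226.1 ± 55.1 CPM in Paneth cells (n = 6) and 204.1 ± 69.2 CPM in goblet cells (n = 8). Next came 141.6 ± 56.5 CPM in stem cells (n = 8) and 102.0 ± 33.9 CPM in secretory progenitors (n = 8). The lowest means were 31.4 ± 18.0 CPM in dividing cells (n = 8), 27.6 ± 13.8 CPM in dividing secretory cells (n = 4), 20.4 ± 8.4 CPM in tuft cells (n = 5) and 0.74 ± 1.30 CPM in enterocytes (n = 8). Tuft cells and dividing secretory cells thus sat with dividing cells, not with the other secretory types.

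Cldn2 was lowest in tuft cells (8.81 ± 19.7 CPM, n = 5, 4 UMIs in 1 cell of mouse 2) and goblet cells (16.6 ± 10.7 CPM, n = 8). Secretory progenitors had 37.3 ± 8.5 CPM (n = 8), dividing secretory cells 37.9 ± 15.1 CPM (n = 4), enteroendocrine cells 40.8 ± 19.2 CPM (n = 4) and Paneth cells 64.0 ± 50.9 CPM (n = 6, from 6.21 to 150.2 CPM). Stem cells (124.4 ± 33.1 CPM), enterocytes (147.3 ± 48.2 CPM) and dividing cells (160.8 ± 33.1 CPM, n = 8 each) stood above. After thinning, a Cldn2 UMI was found in 0 of 45 tuft cells, a count that leaves room for at most 6.67% of tuft cells with a UMI at that depth, in 6.19% of goblet cells and in 43.6% of enterocytes. Unthinned shares were 2.08% of tuft cells, 18.2% of goblet cells and 85.0% of enterocytes.

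Cldn15 split the secretory types another way. It was highest in dividing secretory cells (293.6 ± 25.4 CPM, n = 4) and secretory progenitors (219.2 ± 16.8 CPM, n = 8), and lay between 148.8 and 184.9 CPM on average in goblet cells, enterocytes, stem cells, Paneth cells and dividing cells. Tuft cells had 17.1 ± 16.2 CPM (n = 5) and enteroendocrine cells 6.63 ± 8.55 CPM (n = 4). At 5000 UMIs per cell, 1 of 29 enteroendocrine cells (3.45%, Wilson 95% interval 0.61 to 17.2%) and 0 of 45 tuft cells had a Cldn15 UMI, against 50.7% of stem cells. Enteroendocrine cells were thus high in Cldn4 and low in Cldn15, and tuft cells low in both and in Cldn2.

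Cldn3 was also lowest in enteroendocrine cells, with 157.2 ± 75.2 CPM (n = 4), below the 454.6 to 1137 CPM averaged by the other 8 classes. Tuft cells, unlike for Cldn15, had 469.7 ± 52.8 CPM (n = 5), beside 454.6 ± 79.7 CPM in dividing cells (n = 8). Goblet cells averaged 750.8 ± 132.5 CPM and secretory progenitors 782.8 ± 102.0 CPM (n = 8 each), and enterocytes were at the top. For Cldn7 the enterocyte mean of 2720 ± 268 CPM (n = 8) stood alone, and the 8 other classes averaged between 1071 CPM in Paneth cells and 1603 CPM in dividing cells. Cldn23 averaged 62.3 ± 35.1 CPM in enterocytes, 46.4 ± 17.1 CPM in goblet cells and 42.0 ± 9.4 CPM in secretory progenitors (n = 8 each), against 19.8 ± 5.4 CPM in dividing cells and 7.39 ± 13.4 CPM in tuft cells (n = 5).

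Neighbours in these orders were not told apart by a test, in a design that left little room for it. Of 48 neighbouring pairs, 38 were seen in at least 4 mice and tested by exact two-sided sign flips within mice, and 0 passed after adjustment (lowest adjusted p = 0.099, exact). A raw p under 0.05 was reached by 5 of them, and in 9 pairs all mice went one way. Among these were enterocytes over secretory progenitors for Cldn3 (8 of 8 mice), enterocytes over dividing cells for Cldn7 (8 of 8) and secretory progenitors over dividing cells for Cldn4 (8 of 8), each at a raw exact p = 0.0078, the smallest that 8 mice allow. With fewer mice the smallest p is larger, so those pairs could hardly pass, and the misses do not show equal levels.

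**Figure D3:**
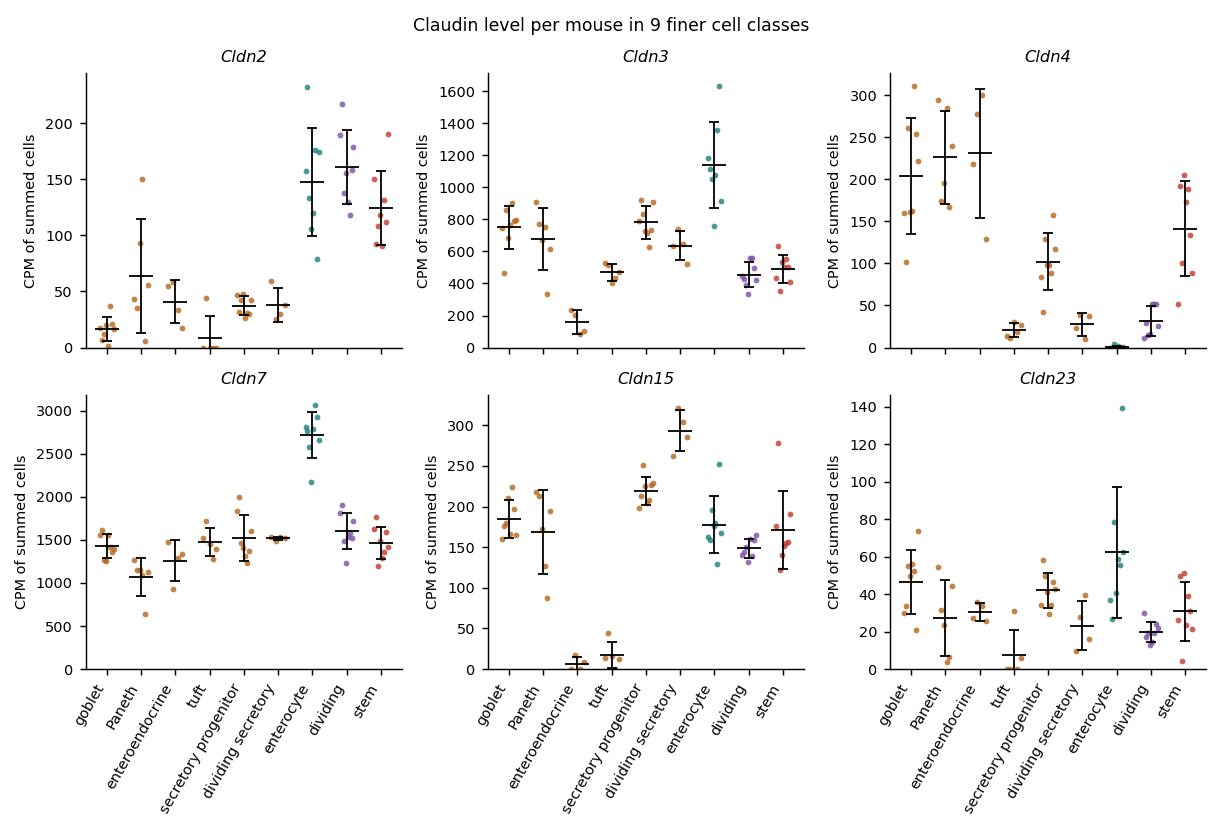
Claudin levels per mouse in 9 finer cell classes. Points are CPM per mouse with at least 5 cells of the class, and black marks give mean and SD (bars end at 0). Cldn15 averages 17.1 CPM in tuft and 6.63 CPM in enteroendocrine cells, and Cldn4 averages 231.3 CPM in enteroendocrine and 20.4 CPM in tuft cells.

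Within dividing cells, 3 clusters led by Cenpf, Hist1h1b and Hells could be set side by side. Cldn3 averaged 535.6 ± 37.8 CPM in the Cenpf-led cluster (n = 7 mice), 462.3 ± 95.5 CPM in the Hist1h1b-led cluster (n = 8) and 360.6 ± 71.6 CPM in the Hells-led cluster (n = 8), and all values of the first lay above all of the last. Cldn7 gave 1832 ± 192, 1602 ± 254 and 1390 ± 175 CPM over the same clusters, with overlapping ranges. Cldn4 averaged 32.5, 33.0 and 33.8 CPM there. No test was run on these clusters.

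Cldn4 averaged more in the stem cluster than in an unnamed cluster that also held Lgr5 UMIs. In the stem cluster it averaged 141.6 ± 56.5 CPM (n = 8 mice), with Lgr5, the stem cell receptor, at 309.2 ± 56.5 CPM. The unnamed cluster, led by Ifitm3 (172 cells), had 20.9 ± 23.0 CPM of Cldn4 (n = 8), with Lgr5 at 72.0 ± 37.4 CPM. Stem values began at 52.3 CPM and overlapped with 1 of the 8 Ifitm3-led sums, at 72.9 CPM. Within the stem cluster, 151 of 236 cells had a Cldn4 UMI, and the 10 cells with most held 25.2% of its 591 UMIs.

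Immediate early genes were higher with Cldn4 in the first of these 2 clusters. The sum of 11 of them (Fos, Fosb, Jun, Junb, Egr1, Atf3, Ier2, Ier3, Dusp1, Ccn1 and Hbegf, chosen after the values were seen) was 8769 ± 1082 CPM in the stem cluster (n = 8) and 2426 ± 891 CPM in the Ifitm3-led cluster (n = 8). Over the 4 classes the sum was 9648 ± 1011 CPM in secretory, 3366 ± 771 CPM in absorptive, 4063 ± 994 CPM in dividing and 9036 ± 1065 CPM in stem cells (n = 8, 6, 8 and 6). Dividing secretory cells went another way: all 50 together had 8120 CPM of the sum with 30.2 CPM of Cldn4, against 9263 and 150.6 CPM in all 236 stem cells together. These genes are known to be induced by tissue dissociation as well as by growth signals, and their part in the Cldn4 levels was not tested.

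**Figure D4:**
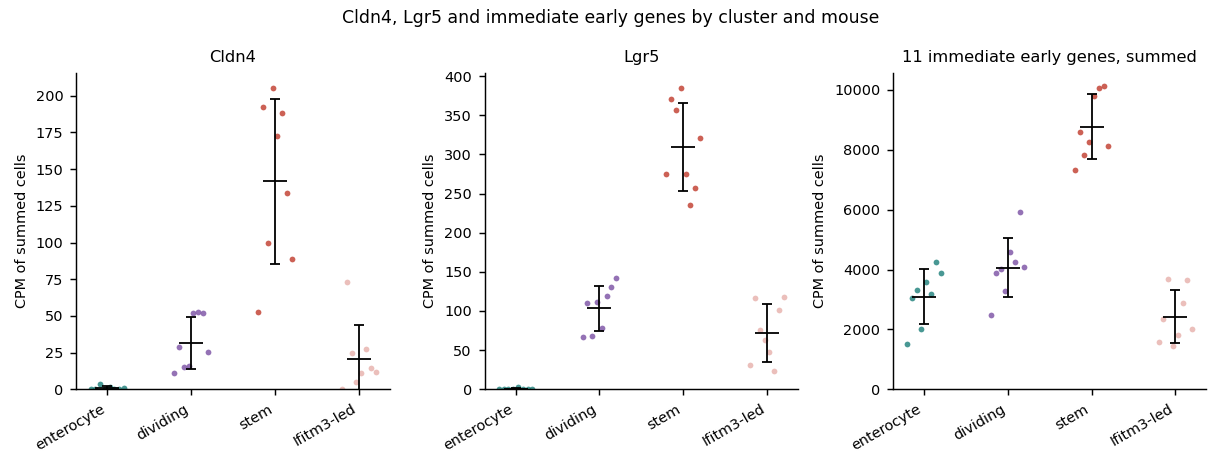
Cldn4, Lgr5 and the sum of 11 immediate early genes by cluster. Points are CPM per mouse and black marks give mean and SD (8 mice, bars end at 0). Cldn4 averages 141.6 CPM in the stem cluster, against 20.9 CPM in the Ifitm3-led cluster.

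Among absorptive cells, each mouse's cells were split at the median of the summed level of 14 enterocyte markers, and the upper and lower sets were compared within 6 mice. Cldn23 averaged 91.0 ± 35.7 CPM in the upper set and 56.8 ± 34.7 CPM in the lower set, and was higher in 6 of 6 mice (log2 difference 0.64, exact two-sided sign-flip p = 0.031, the smallest 6 mice allow; adjusted over 6 claudins 0.19). Cldn2 was higher in the upper set in 5 of 6 mice (148.0 ± 45.6 against 117.3 ± 39.7 CPM, exact adjusted p = 0.28). Cldn3 gave 1208 ± 398 against 1104 ± 312 CPM and Cldn7 2793 ± 521 against 2633 ± 257 CPM. None of the 6 passed after adjustment. With 6 mice, 1 claudin alone at the smallest p cannot pass after adjustment, so the misses say little.

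Clones and control epithelium were then compared over all cells of each gate. The question was whether the progeny of Lgr5 cells carry another set of claudins than the epithelium around them. Clones gave 4, 15, 83 and 8 cells at 48 h (mice 1 to 4) and 154, 40, 111 and 326 cells at 72 h (mice 5 to 8), and control cells numbered between 74 and 261 per mouse. The 48 h clone values therefore rest on few cells. In edgeR with pool as covariate, 0 of the 6 claudins passed at 48 h and at 72 h, where 0% of 10606 genes did at either time. Without adjustment 1271 genes had a p under 0.05 at 48 h and 842 at 72 h, and DESeq2 called 66 and 8 genes, none of them among the 6. With the mouse as block, 0 of the 6 passed at either time, where 0.896% of genes did at 48 h and 1.87% at 72 h. Without the clone cells of mouse 3 the 48 h fit called 4 genes and 0 of the 6 claudins. Cldn4 then gave 0.50 ± 0.40 (edgeR adjusted p = 0.63), against 0.13 ± 0.41 with them (0.95), and Cldn3 gave -0.27 ± 0.15 (0.44), against -0.29 ± 0.14 with them (0.44).

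Cldn3 was lower in clones in most mice. In 48 h clones it stood at 438.3, 610.5, 508.6 and 599.9 CPM (mice 1 to 4), against 639.4, 637.4, 636.4 and 624.5 CPM in 48 h control cells. In 72 h clones it stood at 602.1, 704.5, 583.1 and 602.6 CPM (mice 5 to 8), against 675.1, 679.8, 731.2 and 730.4 CPM in 72 h control cells. Clones were lower in 7 of 8 mice, with mouse 6 the exception, and at 48 h the gates did not overlap. Over all mice the log2 fold change was -0.25 ± 0.10 (edgeR adjusted p = 0.21), with 0.00943% of genes called, and DESeq2 gave -0.21 (adjusted p = 0.039). The fit with the mouse as block called 4.5% of genes over all mice and 0 of the 6 claudins. Within pool 1 the means gave a log2 ratio of -0.20 and within pool 2 of -0.21. The cell classes are mixed in these sums, and Cldn3 was higher in secretory and absorptive cells. At 48 h, clones held 6 secretory and 10 absorptive cells of 110, against 214 and 48 of 586 control cells. At 72 h, clones held 147 secretory and 33 absorptive cells of 631, against 230 and 82 of 666 control cells. Within secretory cells Cldn3 averaged 743.9 ± 22.1 CPM in clones and 726.7 ± 53.6 CPM in control cells (SD, n = 4 and 8 mice). Dividing cells had 442.2 ± 125.4 against 461.0 ± 81.6 CPM (n = 4 and 8), and stem cells 472.4 ± 45.3 against 497.7 ± 86.9 CPM (n = 3 and 5). Cldn3 did not pass between gates in any of these classes. How much of the difference over all cells comes from the mix was not tested.

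Cldn7 differences followed the pool. In 48 h clones it had 1392, 1749, 1897 and 1792 CPM, against 1855, 1971, 1536 and 1502 CPM in 48 h control cells (mice 1 to 4). In 72 h clones it had 1297, 1237, 1794 and 1898 CPM, against 1863, 1682, 1559 and 1531 CPM in 72 h control cells (mice 5 to 8). Clones were lower in mice 1, 2, 5 and 6, whose clones were in pool 2, and higher in mice 3, 4, 7 and 8, whose clones were in pool 1. The 8 sums of pool 1 averaged 1844 ± 88 CPM and the 8 of pool 2 1475 ± 163 CPM. Within pools the log2 ratios of clones to control cells were 0.00 and -0.11, and the fit with pool as covariate gave -0.11 ± 0.09 over all mice (edgeR adjusted p = 0.57).

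The 4 other claudins did not pass either. Cldn2 was higher in clones in 6 of 8 mice (log2 fold change 0.26 ± 0.15 over all mice, edgeR adjusted p = 0.42), with within-pool log2 ratios of -0.02 and 0.68. Cldn4 was higher in clones in 5 of 8 mice (0.16 ± 0.25, edgeR adjusted p = 0.82), with within-pool log2 ratios of 0.22 and 0.25, and its 72 h clones had 89.6, 157.4, 105.9 and 70.0 CPM, against 65.2, 108.3, 76.9 and 97.6 CPM in 72 h control cells. Cldn15 gave 0.00 ± 0.10 and Cldn23 -0.18 ± 0.20 over all mice (edgeR adjusted p = 1.00 and 0.71). Cldn23 was lower in clones in 7 of 8 mice, with mouse 2 the exception, and its within-pool log2 ratios were 0.19 and -0.80. The pool 2 means weigh mice equally and include the 4 clone cells of mouse 1, with 0 Cldn23 UMIs and 17 Cldn2 UMIs (219.2 CPM). Without the shallow clone cells of mouse 3, Cldn4 gave 0.34 ± 0.24 over all mice (edgeR adjusted p = 0.48), Cldn3 -0.24 ± 0.10 (0.21) and Cldn2 0.29 ± 0.17 (0.37). None of the 6 claudins passed in that fit, which called 99 genes, against 1 with these cells.

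**Figure D5:**
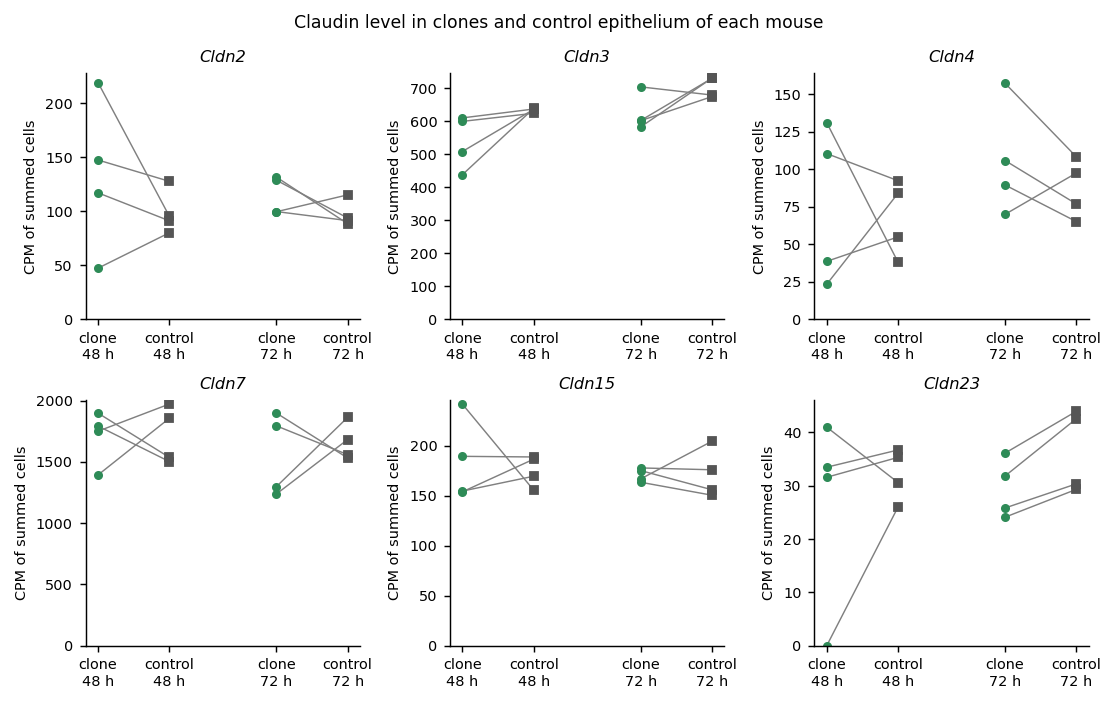
Claudin levels in clones and control epithelium of each mouse. Circles (clones) and squares (control) are CPM over all cells of a gate, grey lines join the gates of one mouse, and the 4 mice of 48 h stand left of the 4 of 72 h. Cldn3 is lower in clones of 7 of 8 mice, and Cldn7 is lower in clones of mice 1, 2, 5 and 6 and higher in clones of the other 4.

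Within classes, the gates could be compared in dividing, secretory and stem cells. None of the 6 claudins passed in any of the 3, where 0% of 7868, 8328 and 5494 genes did (unadjusted p under 0.05 for 472, 178 and 235 genes; DESeq2 called 3, 1 and 0). Cldn4 in dividing cells differed most. Clones of mice 3, 5, 7 and 8 had 0, 86.2, 72.8 and 30.6 CPM, against 15.6, 19.5, 27.4 and 9.09 CPM in control cells of the same mice. The other 4 mice had control cells alone, with 10.8 to 50.2 CPM. The 3 mice of 72 h were higher in clones, and mouse 3, whose 16 clone cells are the shallow ones named above, was not. At that depth a Cldn4 count of 0 does not show that the rise was absent at 48 h. The log2 fold change was 1.24 ± 0.40 (edgeR adjusted p = 0.61), and with the mouse as block it was 1.76 ± 0.26 (edgeR adjusted p = 0.00015), among 0.724% of genes called by the blocked fit. Without the clone cells of mouse 3 the blocked fit gave 1.87 ± 0.24 (edgeR adjusted p = 1.3e-06), and the unblocked 1.36 ± 0.42 (0.52). Lgr5 moved with it: in dividing clone cells of mice 3, 5, 7 and 8 it had 0, 114.1, 179.8 and 170.3 CPM, against 71.7, 44.5, 73.6 and 59.8 CPM in dividing control cells of the same mice. Its part in the Cldn4 difference was not tested. Both blocked fits take the gate and pool terms from mice with both gates alone (mice 3, 5, 7 and 8, or mice 5, 7 and 8). This leaves few residual degrees of freedom, so their p-values for Cldn4 lean on the spread shared across genes.

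In secretory cells Cldn4 gave -0.08 ± 0.31 and in stem cells -0.14 ± 0.26 for clones against control cells (edgeR adjusted p = 1.00 in both). Cldn2 gave 0.09 ± 0.15 in dividing, 0.11 ± 0.30 in secretory and 0.05 ± 0.26 in stem cells. The blocked fit in secretory cells called 0.504% of genes and 0 of the 6 claudins. A miss of the threshold at these SE does not show equal levels. Absorptive clone cells were too few to be fitted.

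Tracing time was compared next, 72 h against 48 h, between different mice. In clones 0% of 10606 genes passed (664 with an unadjusted p under 0.05, and 1 by DESeq2), and in control cells 0.0849% did, with 0 of the 6 claudins in each. Cldn3 gave 0.31 ± 0.14 in clones and 0.24 ± 0.14 in control cells (edgeR adjusted p = 0.78 and 0.88), and Cldn4 0.55 ± 0.40 and 0.51 ± 0.29 (0.87 and 0.88). The change of the clone-to-control difference between the times was not past the threshold for any gene (0%, 554 with an unadjusted p under 0.05, and 2 by DESeq2), and with the mouse as block 0.0943% of genes and 0 of the 6 claudins passed. For the claudins it lay between -0.22 for Cldn23 and 0.07 for Cldn3.

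Within dividing cells Cldn3 was the claudin nearest to a time difference. At 72 h it had 596.6, 457.7 and 423.4 CPM in clones of mice 5, 7 and 8 and 524.1, 574.5, 545.8 and 427.4 CPM in control cells of mice 5 to 8. At 48 h it had 291.3 CPM in clones of mouse 3 and 447.2, 439.7, 398.0 and 331.2 CPM in control cells of mice 1 to 4. Mouse 8 at 72 h overlapped with the 48 h values and the other 72 h sums lay above them. The log2 fold change of 0.53 ± 0.14 did not pass (edgeR adjusted p = 0.11, with 0.0254% of 7868 genes called). It passed by DESeq2 (0.51, adjusted p = 0.011), without the filter on low counts (0.54, edgeR adjusted p = 0.022), without mouse 5 (0.54, 0.044) and without mouse 8 (0.62, 0.022). Both gates of a mouse entered this fit as separate sums, so it counts more sums than the 4 mice of each time. With 1 sum per mouse, tried after the data were seen, Cldn3 gave 0.44 ± 0.12 (edgeR adjusted p = 0.11).

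Cldn4 in dividing cells did pass with 1 sum per mouse, in a fit that called 0.612% of 8339 genes. At 72 h it had 52.0, 52.3, 51.7 and 25.1 CPM (mice 5 to 8), against 10.8, 29.1, 15.0 and 15.5 CPM at 48 h (mice 1 to 4). Mouse 8 overlapped with the 48 h values through mouse 2. The log2 fold change was 1.44 ± 0.31 (edgeR adjusted p = 0.044), against 0.68 ± 0.48 with gates as separate sums and gate as a term (0.64). The gates move with time in these sums: clones were 208 of 352 dividing cells at 72 h, against 20 of 181 at 48 h. Their part in the Cldn4 difference was not tested.

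In secretory cells, where 0.144% of 8328 genes passed, no claudin did, and Cldn4 gave 0.67 ± 0.30 (edgeR adjusted p = 0.98; 0.014 without the filter on low counts). With 1 sum per mouse 0% of 8709 genes passed there (460 with an unadjusted p under 0.05).

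Of the other claudins, Cldn8 and Cldn12 had enough counts for the class fits. Cldn8, a sealing claudin best known from colon and kidney, averaged 0.50 ± 0.62 CPM in secretory, 15.7 ± 8.7 CPM in absorptive, 5.55 ± 3.87 CPM in dividing and 7.91 ± 6.38 CPM in stem cells (n = 8, 6, 8 and 6). It was higher in absorptive than in stem cells (log2 fold change 1.40 ± 0.39, edgeR adjusted p = 0.0021) and lower in secretory than in stem cells (-3.71 ± 0.58, edgeR adjusted p = 1.3e-06), on 7 UMIs in all secretory cells. Cldn12 was higher in secretory than in absorptive cells (0.71 ± 0.27, edgeR adjusted p = 0.021) and passed in no other class contrast. Cldn14, known from the inner ear and kidney, was too rare for the fits. It had 66.1 ± 22.7 CPM in tuft cells (n = 5 mice, from 32.9 to 92.9 CPM), 18.3 ± 18.0 CPM in enteroendocrine cells (n = 4) and 0 UMIs in 173 enterocytes. Over all cells of a type, including mice with few of them, enteroendocrine cells had 84.1 CPM (50 UMIs) and tuft cells 52.4 CPM (35 UMIs). Control cells of mouse 4 alone held 42 of the 120 Cldn14 UMIs of all cells.

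Genes of the surrounding junction were counted from 4 lists of tight junction scaffold and tetraspan proteins, claudin partners and membrane proteases, adherens junction and desmosome proteins, and transcription regulators. In absorptive against stem cells, 8 of 21 tested scaffold genes were higher and 4 lower (median log2 fold change 0.19), 10 of 17 partners higher and 6 lower (0.38), 8 of 18 adherens genes higher and 2 lower (0.31) and 5 of 17 regulators higher and 4 lower (0.03), beside a median of -0.09 over all genes, of which 29.3% were higher and 32.2% lower. With library totals in place of TMM scaling, the scaffold median was 0.01 with 6 higher and 4 lower, and the regulators counted 5 higher and 6 lower (median -0.15). Ranks of single genes, in this and the other class contrasts, are among called list genes whose mean log2 CPM reached 5. Maf, a regulator of the absorptive programme, had the largest rise (5.96 ± 0.29, edgeR adjusted p = 3.7e-19), followed by Mylk, the myosin light chain kinase that tunes junction tension (4.29 ± 0.25, 4.5e-17), and Cdh17, the liver-intestine cadherin (1.89 ± 0.12, 2.8e-16). Tmprss2, a membrane serine protease, fell most (-1.86 ± 0.24, edgeR adjusted p = 2.2e-08), then the tetraspanin Cd81 (-1.38 ± 0.14, 5.9e-11) and the protease Tmprss4 (-0.84 ± 0.13, 9.4e-07).

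A further 3 genes of these lists were picked after their values were seen, for their direct link to claudins. Epcam, the partner of Cldn7, was higher in absorptive than in stem cells (0.85 ± 0.08, edgeR adjusted p = 2.0e-11), as was the scaffold Tjp1 (1.17 ± 0.15, 3.0e-08). The junction protein Ocln was lower there (-0.38 ± 0.14, edgeR adjusted p = 0.021). In secretory against stem cells Epcam gave 0.00 ± 0.08 (edgeR adjusted p = 1.00).

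Against dividing cells, absorptive cells had 11 of 21 scaffold genes higher and 1 lower (median 0.40), 10 of 17 partners higher and 6 lower (0.50), 11 of 18 adherens genes higher and 2 lower (0.49) and 8 of 17 regulators higher and 5 lower (0.19), with all genes at -0.04 (32.1% higher, 33.5% lower). The largest rises were again Maf (5.41 ± 0.21) and Mylk (2.95 ± 0.17), with Igsf5, a junctional adhesion molecule (1.90 ± 0.16). Cd81 (-1.10 ± 0.13), Tmprss2 (-1.15 ± 0.23) and Atoh1, the regulator of the secretory fate (-3.27 ± 0.95), fell most. With library totals in place of TMM scaling, 7 scaffold genes were higher and 3 lower (median 0.12), 4 regulators higher and 5 lower (-0.09), and the all-gene median was -0.33.

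Secretory against absorptive cells ran the other way for the junction lists, with 2 of 21 scaffold genes higher and 11 lower (median -0.59), 1 of 18 adherens genes higher and 12 lower (-0.53), 6 of 17 partners higher and 5 lower (-0.05) and 8 of 17 regulators higher and 7 lower (-0.30), beside 0.13 over all genes (33% higher, 25.9% lower). Atoh1 (8.93 ± 0.39), Tmprss2 (3.37 ± 0.19) and Klf4, a goblet cell regulator (2.33 ± 0.16), rose most, and Hnf4g, an enterocyte regulator (-2.46 ± 0.11), Mylk (-4.37 ± 0.19) and Maf (-5.29 ± 0.20) fell most. Against stem cells, secretory cells had 5 scaffold genes higher and 8 lower (-0.19), 8 partners higher and 3 lower (0.27), 5 adherens genes higher and 7 lower (-0.09) and 4 regulators higher and 8 lower (-0.22), with all genes at -0.02 (28% higher, 27% lower). With library totals, 2 scaffold genes were higher and 10 lower, and 5 partners higher and 4 lower (median 0.08). The cell adhesion gene Nectin3 (-2.24 ± 0.12) and Vdr, the vitamin D receptor (-2.24 ± 0.13), fell most there.

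In dividing against stem cells 0 scaffold genes were higher and 9 lower (median -0.25), 2 partners higher and 6 lower (-0.16), 1 adherens gene higher and 5 lower (0.06) and 1 regulator higher and 3 lower (-0.16), beside -0.01 over all genes (17.5% higher, 17% lower). The junctional receptor Cxadr (-1.06 ± 0.14, edgeR adjusted p = 2.5e-07) and the junctional adhesion molecule F11r (-0.66 ± 0.12, 2.5e-05) were among the lowest. With library totals in place of TMM scaling, 2 scaffold genes were higher and 9 lower, and the adherens genes counted 5 higher and 2 lower. In the fits with pool as covariate, no gene of the 4 lists passed between clones and control cells or between tracing times.

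Genes with the most similar pattern to each claudin over 9 classes were looked up among 3116 genes by Pearson's r of log2(CPM + 10), as a description over points that share mice and libraries. Cldn2 was nearest to Cd74 (r = 0.95), Gsto1 (0.93) and H2-Aa (0.91), of which Cd74 and H2-Aa belong to antigen presentation by MHC class II. Cldn4 was nearest to Fam20b (0.96), Ppp1r15a (0.95) and Nr4a1 (0.95), the last of them a stress- and growth-induced receptor gene. For Cldn3 the nearest were Prss32, Mgst2 and Chmp2b (0.93 to 0.98), for Cldn7 Tspan15, Atp5d and 0610012G03Rik (0.97 to 0.98), for Cldn15 B4galnt2, the protease St14 and Smim15 (0.95 to 0.97), and for Cldn23 Tmem205, Adipor2 and Acaa2 (0.90 to 0.92). Between claudins, r was -0.82 for Cldn4 and Cldn7 and 0.78 for Cldn3 and Cldn15.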

How the data were processed

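Per the file headers, the deposited matrices hold counts, whole-number UMI counts per gene and antibody counts per hashtag for each barcode, without normalization. Reads were processed with Cell Ranger 6.1.2 against mm10, per the submitters' processing notes. Which hashtag caller and cell filters the authors used is not given in the sources used here. The deposited gene and barcode lists hold other values, names and barcodes.

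Pool 1 held 3342 barcodes (30278443 UMIs) and pool 2 2110 (28050962). Hashtags were called with HTODemux (Seurat 5.3.0, quantile 0.99), and barcodes with several hashtags were dropped as doublets. Of 4029 barcodes with 1 hashtag, 1993 passed the cell filters (minimum 1000 UMIs and 500 genes, mitochondrial share below 20%). These were clustered in scanpy 1.11.5 (2000 variable genes, 30 principal components, 15 neighbours, Leiden resolution 1.0) with all 32 claudin genes left out, and named from marker lists (at least 3 markers among 50 leading genes). Of the 4 unnamed clusters, levels are given for the Ifitm3-led one, and results that need another are not reported here.

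The mouse was the replicate. Counts were summed per mouse and class (at least 10 cells) or per mouse and gate, and tested two-sided across all genes with edgeR 4.0.16 (filterByExpr, TMM, quasi-likelihood), with mouse as block between classes and pool as covariate between gates. Within a class, both gates of a mouse entered the time fit as separate sums, and 1 sum per mouse was an alternative. The SE of an edgeR fold change was derived from the test, as the absolute log2 fold change over the square root of the F statistic. Adjusted p-values are Benjamini-Hochberg over all genes tested, with a threshold of 0.05. DESeq2 1.42.0 was an alternative. Both gates of a mouse share an animal, so the mouse as block is a paired fit. The residuals of the 2 gates correlated at 0.02 to 0.43 in the 8 mice. Intervals (Wilson, 95%) and limits from a count of 0 (3 counts) cover counting error only. Scripts were tested on simulated counts.

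Named genes were the 6 claudins, other claudins past the filter, up to 3 called list genes each way per class contrast whose mean log2 CPM reached 5, and the 3 genes most alike. Cldn14, the other list genes and the immediate early genes were chosen after their values were seen. The members and lists were chosen with earlier results of these data known.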

Additional observations from a re-analysis of the deposited data

Results flagged for a closer look

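Of 78 groups of 4 to 10 samples checked, 4 had 1 sample far from the others, where about 1 in 20 groups would by chance. Cldn3 in 72 h clones was 704.5 CPM in mouse 6 (573 UMIs in 40 cells), against 583.1 to 602.6 CPM in the other 3 mice. Cldn7 in Paneth cells was 640.0 CPM in mouse 7 (103 UMIs in 5 cells), against 1091 to 1267 CPM in the others. Both other cases rest on few UMIs of tuft cells. Cldn2 was 44.0 CPM in mouse 2 (4 UMIs in 6 cells), with 0 in the others. Cldn23 was 31.0 CPM in mouse 5 (2 UMIs in 7 cells), with 0 to 5.98 CPM in the others. For 0 of the claudins did all mice of one tracing time move one way between clones and control cells and all mice of the other time the opposite way.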

How the results depend on the processing

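The class contrasts kept their direction for every called claudin in all 23 alternatives, and 0 called values reversed. For secretory against stem cells, 5 claudins were called in the report (55% of genes). The count was 3 with control cells only (3617 of 8428 genes) and with library totals without TMM (5196 of 8955). It was 3 to 6 without replicate 1 to 8 in turn. For dividing against stem cells, 1 was called in the report (34.5% of genes). The count was 2 at Leiden resolution 0.6 (3723 of 8935) and with at least 5 cells per sum (2993 of 8181). It was also 2 with no filter on low counts (3165 of 19121) and with the replicate block of mouse and gate (3100 of 8643). With 1 mouse left out it was 1 to 2. Leaving out 1 mouse gave 5 to 6 for absorptive against stem cells (61.5% of genes in the report). It gave 5 for absorptive against dividing (65.6%) and secretory against absorptive cells (58.9%). Cldn7 passed in dividing against stem cells at resolution 0.6 (0.25, edgeR adjusted p = 0.008), and in secretory against stem cells with no filter (0.22, 0.028) and without mouse 4 (0.19, 0.039).

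Between gates and times no claudin passed in the fits with pool as covariate over all mice. Under alternatives 1 did, given here with the genes called in each fit. Over all mice it was Cldn3 with DESeq2 (270 of 10606 genes). Between gates within dividing cells it was Cldn4 with no filter on low counts (54 of 16709) and with the replicate block (57 of 7868). The replicate block without the clone cells of mouse 3 also called Cldn4 (185 of 8150). For time within dividing cells it was Cldn3 with DESeq2 (152 of 7868) and with no filter (210 of 16709). With 1 mouse left out 0 to 1 passed there, Cldn3 without mouse 5 (99 of 7601) or mouse 8 (173 of 7620). With 1 sum per mouse it was Cldn4 (51 of 8339). For time within secretory cells it was Cldn4 with no filter (126 of 17407). The block changed no other claudin call between gates. It moved the number of genes called from 0 to 95 at 48 h, from 0 to 198 at 72 h, from 1 to 477 over all mice, from 0 to 57 within dividing and from 0 to 42 within secretory cells. The cause of these changes was not tested. Without TMM the median of all genes moved from -0.09 to -0.28 in absorptive against stem, from -0.04 to -0.33 in absorptive against dividing and from -0.02 to -0.21 in secretory against stem cells. Among single claudins with 1 mouse left out, 772 values kept their side of the threshold, 9 newly passed and 5 no longer did. In the remaining alternatives 955 kept it, 15 newly passed and 14 no longer did. Depth limits the absorptive Cldn4 level (5 UMIs), the 48 h clones (4 to 83 cells per mouse) and tuft and enteroendocrine cells (48 and 34 cells). Gates within absorptive cells, and time within stem cells, could be fitted in the alternatives with smaller sums or other mitochondrial limits, but not as planned.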
